A study of Mus musculus with 16 samples.

Results

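The effect of the BDC2.5 T cell receptor (TCR) transgene was examined in early thymocytes of NOD mice by setting the 2 arrays of BDC/NOD DN2-3 cells against the 2 arrays of NOD DN2-3 cells, 4 of the 16 arrays of the series. Each value is the log2 intensity of the brightest probe set of a gene, and each difference is BDC/NOD minus NOD. BDC/NOD mice carried rearranged alpha and beta chain genes of the receptor of BDC2.5, a clone of CD4 T cells able to cause diabetes, on the NOD background, which develops autoimmune diabetes. NOD mice without the transgene had a polyclonal repertoire. Both groups shared the NOD MHC haplotype, H2g7, and were 4 weeks old. BDC/NOD replicate 1 came from a male and replicate 2 from a female, as in the other BDC groups, whereas both NOD arrays came from females. Cells that carried CD4 or CD8 were depleted with complement, and DN2-3 cells were sorted as double-negative, lineage-negative and CD25-positive. The other 12 arrays covered the DN4 stage, sorted as CD44-negative and CD25-negative, and the strain B6g7, which is C57BL/6 with H2g7. Each BDC group thus holds 1 male and 1 female array, which cannot stem from 1 animal, so that sex is part of the spread in those groups. Since males occur only in BDC groups, sex also goes in part with the transgene, and the main fit had no term for it. For the groups without the transgene, both of whose arrays are female, the labels do not tell whether the arrays stem from different animals. The spread in those groups may be technical. All p-values rest on 1 spread per gene shared by the 8 groups, of which those groups are a part.

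DN2-3 thymocytes commit to the T lineage and rearrange their TCR genes with the RAG recombinase. In the usual course a new beta chain pairs with the invariant pre-TCR alpha chain, and signals from this pre-TCR, together with Notch and interleukin-7, drive proliferation and the step to DN4. A transgene that is already rearranged can supply a complete alpha-beta TCR before that step, and such early expression is known to give cells some features of the gamma-delta lineage.

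NOD DN2-3 replicate 1 stood apart from the other arrays. Its upper intensity quartile was 6.82 times its lower one, against 7.46 to 10.3 times on the other 15 arrays. Over genes it correlated with its replicate at 0.960 and differed from it by a median of 0.25 log2 in either direction, whereas replicates of the other groups differed by 0.07 to 0.13. Array medians ran from 123.1 to 138.2 on the linear scale, and no array went against its labelled sex in Xist or Y-linked signals. The Y-linked signals reached 5.98 log2 on female arrays, which lack these genes, and signals up to that level were taken as background. Without it the median difference over all genes tested was 0.01 in place of 0.06 log2, and results that depended on it are also given without it.

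The transgene was accompanied by broad differences in NOD DN2-3 cells. Of 10689 genes tested with limma at an adjusted p threshold of 0.05, 2303 were higher in BDC/NOD cells (21.5%) and 1505 were lower (14.1%), 35.6% in all. The differences were mostly small, with a median size of 0.51 log2 among the called genes in each direction. Only 136 of the genes called higher and 203 of those called lower differed by at least 2-fold, and 9 and 18 by at least 4-fold. The arrays of the groups did not overlap for 61.2% of all genes, 36.1% with BDC/NOD higher and 25.1% with BDC/NOD lower. Among called genes, 2301 of the 2303 higher and 1503 of the 1505 lower did not overlap. A lack of overlap in a called gene, where given below, thus describes its values and adds little to the call. The balance of directions was not stable: quantile normalization of the arrays gave 2087 higher and 1879 lower, and centring on the array medians gave 2812 and 1082. There were 1344 higher and 1617 lower without NOD DN2-3 replicate 1, and 2397 of the 3808 genes remained called, none in the opposite direction. Leaving out NOD DN2-3 replicate 2 gave 3933 and 1851, BDC/NOD replicate 1 gave 1102 and 915, and BDC/NOD replicate 2 gave 1263 and 894. Counts of list members with all arrays are to be read beside 21.5% higher and 14.1% lower. Those with an array left out are to be read beside the counts of all genes in that fit. The samples are bulk samples, in which fewer cells of a type and less RNA per cell cannot be told apart.

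The largest rise was that of Etv5, an ETS-family transcription factor induced by MAP kinase signalling and active in gamma-delta T cells. Etv5 read 10.89 and 10.76 log2 on the BDC/NOD arrays, against 7.004 and 7.24 on the NOD arrays. The gap between the groups was far wider than that between replicates, and the rise was 3.70 ± 0.10 (SE of the model, n = 2 arrays each; adjusted p = 2.01e-10). Slc15a1, an oligopeptide transporter, read 8.53 and 8.42 on BDC/NOD arrays and 5.42 and 5.37 on NOD arrays. Both NOD values lay at background, so it was higher by at least 2.50 (adjusted p = 4.47e-10). Igfbp4, which binds insulin-like growth factors, had 10.91 and 10.80 in BDC/NOD and 7.97 and 8.22 in NOD, a rise of 2.76 ± 0.11. Cd2, an adhesion receptor of T cells, had 9.63 and 9.46 in BDC/NOD and 7.06 and 7.05 in NOD, a rise of 2.49 ± 0.11. St6gal1, which adds sialic acid to glycans, rose by 2.72 ± 0.14, with NOD replicate 2 at background, and Gimap4, a GTPase of lymphocytes, by 2.37 ± 0.12. H2-Q2, a gene of the MHC class I Q region, rose by 2.19 ± 0.18. Probe sets of that region can share sequence among near-identical genes, so the identity of the H2-Q2 signal is uncertain. The other genes among the 12 largest rises were Gzma, a granzyme of cytotoxic cells (2.13 ± 0.14), Blk, a Src-family kinase (2.09 ± 0.14), Camk4, a calcium-dependent kinase (1.88 ± 0.12), Cd163l1, a scavenger receptor (1.84 ± 0.11), and Asf1b, a histone chaperone used in S phase (1.82 ± 0.12).

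The largest fall was that of Bst1, a GPI-anchored ectoenzyme. Bst1 read 7.58 and 7.79 on BDC/NOD arrays, against 11.74 and 11.73 on NOD arrays. The fall was -4.06 ± 0.14 (adjusted p = 8.61e-10), and no array of either group came near the other. Rxfp1, the relaxin receptor, had 6.17 and 5.80 in BDC/NOD and 9.35 and 8.73 in NOD (-3.06 ± 0.22), with BDC/NOD replicate 2 below background. Cd59a, a GPI-anchored complement inhibitor, had 6.82 and 6.80 in BDC/NOD and 9.46 and 9.77 in NOD (-2.80 ± 0.17). Ly6d, a further GPI-anchored surface protein, fell by 2.55 ± 0.18 log2 and Zeb2, a zinc finger repressor, by 2.37 ± 0.12. In both the replicates lay closer together than the groups did. Cyp2j6, a cytochrome P450, and Klhl4, a Kelch-like protein, were at background in BDC/NOD cells and the bounds on their falls were -2.00 and -1.51. Pld4, an endolysosomal nuclease (-2.28 ± 0.18), Uaca, an ankyrin repeat protein (-2.24 ± 0.12), Rag2 (-2.20 ± 0.22), Tox3, an HMG-box protein (-2.18 ± 0.22), and AA467197 (-2.06 ± 0.18) completed the 12 largest falls. All 24 of these genes stayed called, in the same direction, without NOD DN2-3 replicate 1.

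**Figure D1:**
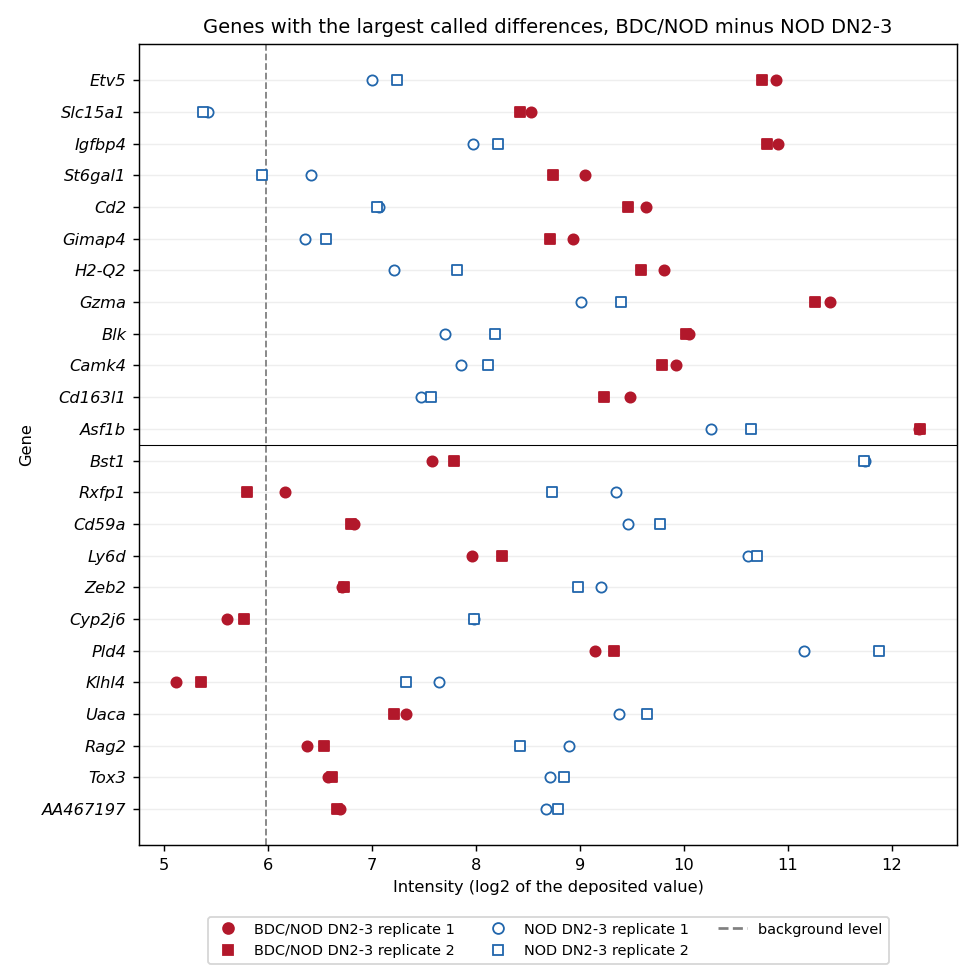
Log2 intensity (x axis) of the 12 genes with the largest called rise (top) and the 12 with the largest called fall (bottom) on the 4 arrays. Filled red symbols are BDC/NOD DN2-3 and open blue symbols NOD DN2-3, circles replicate 1 and squares replicate 2, and the dashed line marks background at 5.98. The groups do not overlap in any row, which the choice of genes required, and both NOD values of Slc15a1 lie left of the line.

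Genes of receptor gene rearrangement were lower in BDC/NOD cells at the recombinase itself. Rag1, a subunit of the recombinase, read 9.45 and 9.69 in BDC/NOD and 10.75 and 11.43 in NOD, a fall of -1.52 ± 0.24 (adjusted p = 0.000543). Rag2, the other subunit, read 6.38 and 6.54 in BDC/NOD and 8.90 and 8.42 in NOD (adjusted p = 1.41e-05). For both genes each BDC/NOD array was below each NOD array. Of 13 recombination genes tested, 2 were called higher and 4 lower, where 21.5% and 14.1% of all genes were. Their median difference was -0.10 log2 against 0.06 over all genes. Leaving out NOD DN2-3 replicate 1 gave 2 and 4, and leaving out either BDC/NOD array 1 and 4. Besides the RAG genes, Xrcc4, an end-joining factor (-0.80 ± 0.18), and Dntt, the template-free polymerase of V(D)J joints (-0.64 ± 0.11), fell. Hmgb2, a cofactor of RAG cleavage, rose by 0.46 ± 0.10 and Xrcc5, the larger Ku subunit, by 0.26 ± 0.09. The Xrcc5 call was lost without NOD DN2-3 replicate 1 (0.22, adjusted p = 0.11), BDC/NOD replicate 1 (0.22) or BDC/NOD replicate 2 (0.30), and that of Xrcc4 held at -0.53 without NOD DN2-3 replicate 1.

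Markers that define the sorted stage were present in both groups. Il2ra, which encodes CD25 and was used in the sort, read 12.32 and 12.40 in BDC/NOD and 13.30 and 13.11 in NOD, a difference of -0.84 ± 0.12. Ptcra, the pre-TCR alpha chain, read 8.20 and 8.37 in BDC/NOD and 9.02 and 9.67 in NOD, a fall of 1.06 ± 0.16 log2. Of 8 DN2-3 markers, 6 were called lower and 0 higher, with a median of -0.88, and the remaining genes Thy1 and Dtx1 had differences of 0.09 and -0.64. Lower calls numbered 4 to 6 when each of the 4 arrays was left out in turn, the fewest without BDC/NOD replicate 1.

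**Figure D2:**
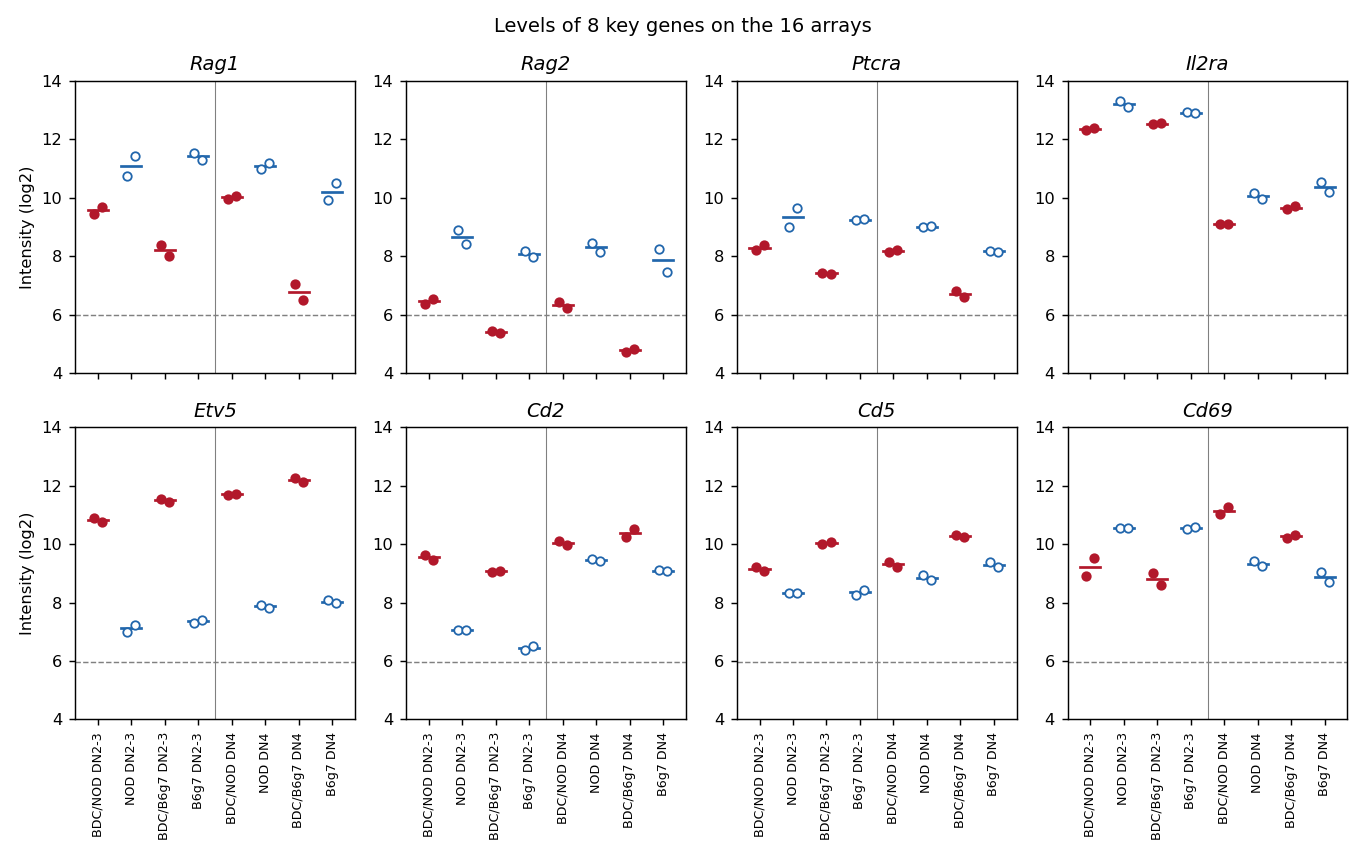
Log2 intensity (y axis) of 8 key genes in the 8 groups, DN2-3 left of the vertical line and DN4 right of it, with 1 point per array and a bar at the group mean. Red filled points are BDC groups and blue open points are groups without the transgene. Rag1, Rag2, Ptcra and Il2ra were lower in BDC/NOD than in NOD DN2-3 cells, Etv5, Cd2 and Cd5 were higher, and Cd69 was lower in DN2-3 but higher in DN4 cells.

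Genes of the TCR complex and its proximal signalling were more often lower than higher. Of 36 tested, 5 were called higher and 16 lower, with a median of -0.28 log2, beside 21.5% and 14.1% of all genes. Blk, given above, had the largest rise of the 5. The lower calls numbered 17 without NOD DN2-3 replicate 1, 10 without BDC/NOD replicate 1 and 9 without BDC/NOD replicate 2, and the higher calls 10 without NOD DN2-3 replicate 2. Cblb, a ubiquitin ligase that restrains TCR signalling, read 10.53 and 10.48 in BDC/NOD and 11.94 and 12.14 in NOD, a fall of -1.54 ± 0.09 (adjusted p = 2.25e-07). Themis, an adaptor needed for selection, fell by 0.85 ± 0.09 log2. Zap70, the kinase recruited to the TCR, went the other way with 9.53 and 9.33 in BDC/NOD and 8.40 and 8.59 in NOD, a rise of 0.94 ± 0.09. Csk, a kinase that inhibits Src-family kinases, was higher by 0.86 ± 0.18 and Sla, an adaptor of receptor turnover, by 0.69 ± 0.14. The Csk rise was 0.47 without NOD DN2-3 replicate 1. Cd3e, a signalling chain of the receptor, differed by -0.29 ± 0.10, a call lost without NOD DN2-3 replicate 1 (adjusted p = 0.067), BDC/NOD replicate 1 (-0.36) or BDC/NOD replicate 2 (-0.23).

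Among 29 genes that TCR signals are known to induce, 11 were called higher and 8 lower, beside 21.5% and 14.1% of all genes. Their median was 0.16, and 0.02 without NOD DN2-3 replicate 1. Pdcd1, the inhibitory receptor PD-1, read 10.498 and 10.39 in BDC/NOD and 8.64 and 8.83 in NOD, a rise of 1.71 ± 0.10 (adjusted p = 2.25e-07). Cd5, a receptor whose level follows TCR signal strength, read 9.23 and 9.07 in BDC/NOD and 8.32 and 8.33 in NOD, a rise of 0.82 ± 0.10. Cd6, its relative, rose by 1.17 ± 0.14 and Nfkbid, a nuclear regulator of NF-kB, by 0.93 ± 0.15. In these 4 genes every BDC/NOD array exceeded every NOD array. Nr4a1, an immediate target of TCR signals, read 12.46 and 12.24 in BDC/NOD and 10.01 and 11.68 in NOD. Its rise of 1.503 ± 0.35 was 0.67 without NOD DN2-3 replicate 1, still called (adjusted p = 0.0051), and 2.34 without NOD DN2-3 replicate 2. Other induced genes were lower. Rgs1, a G protein regulator, read 7.73 and 7.57 in BDC/NOD and 10.21 and 9.13 in NOD (-2.02 ± 0.30), and Cd69, an early activation antigen, 8.92 and 9.53 in BDC/NOD and 10.54 and 10.57 in NOD (-1.33 ± 0.19). Ctla4, an inhibitory receptor, fell by 0.93 ± 0.16 log2 and Tnfrsf9, a costimulatory receptor, by 0.73 ± 0.12. Egr1, an immediate-early factor, had 8.27 and 8.23 in BDC/NOD and 8.11 and 8.71 in NOD and was not called (-0.16 ± 0.16), though it was without NOD DN2-3 replicate 1 (-0.46). Leaving out each of the 4 arrays gave 9 to 13 calls higher and 4 to 9 lower, with 4 lower calls without either BDC/NOD array.

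Feedback genes of the MAP kinase pathway gave 5 calls higher and 1 lower of 14 tested, beside 21.5% and 14.1% of all genes. Etv5, given above, had the largest rise of the 5. However, the level of the list differed between the NOD replicates by a median of -0.56 log2 (replicate 1 minus replicate 2). The list had 4 calls higher and 3 lower and a median of 0.03 in place of 0.32 without NOD DN2-3 replicate 1, and without NOD DN2-3 replicate 2 it had 9 higher and 2 lower. Without BDC/NOD replicate 1 it had 0 lower. Dusp4, a phosphatase of MAP kinases, read 8.82 and 8.83 in BDC/NOD and 7.12 and 7.75 in NOD, a rise of 1.39 ± 0.17. Dusp10, a phosphatase of the same family, rose by 0.92 ± 0.14. Both stayed called without NOD DN2-3 replicate 1, at 1.07 and 0.68, whereas Dusp7 (0.65 ± 0.18) did not (0.26, adjusted p = 0.10), nor without BDC/NOD replicate 1 (0.58). Spry2, an inhibitor of receptor tyrosine kinase signals, fell by 0.48 ± 0.11 log2, a call lost without BDC/NOD replicate 1 (-0.41).

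Genes of gamma-delta and innate-like T cells were divided. Of 19 tested, 8 were called higher and 6 lower, with a median of 0.20, beside 21.5% and 14.1% of all genes. The 4 that led the rises were Etv5, Gzma, Blk and Cd163l1. Etv5 is also counted in the MAP kinase list and Blk in the TCR complex list. Gzma read 11.41 and 11.27 in BDC/NOD and 9.01 and 9.40 in NOD, and Blk 10.05 and 10.02 in BDC/NOD and 7.71 and 8.18 in NOD. Sox13, which acts in gamma-delta T cell development, was not called (0.28 ± 0.11, adjusted p = 0.069), though it was without NOD DN2-3 replicate 1 (0.37, adjusted p = 0.040). Among the falls were Tmem176b, a membrane channel protein of RORgt-expressing cells, with 9.32 and 9.39 in BDC/NOD and 10.66 and 10.79 in NOD (-1.37 ± 0.09), Tmem176a (-0.95 ± 0.25), and Gzmb, a granzyme (-0.56 ± 0.14). Fcer1g, an Fc receptor signalling chain, fell by 0.79 ± 0.21 log2 with all arrays but was not called without NOD DN2-3 replicate 1 (-0.35, adjusted p = 0.094) or BDC/NOD replicate 1 (-0.66), and was -1.23 without NOD DN2-3 replicate 2. The Gzmb call was lost without BDC/NOD replicate 1 (-0.52), and that of Tmem176a without NOD DN2-3 replicate 2 (-0.45), BDC/NOD replicate 1 (-0.96) or BDC/NOD replicate 2 (-0.94), while the Tmem176a fall was -1.45 without NOD DN2-3 replicate 1. The lower calls numbered 4 with NOD DN2-3 replicate 1 left out and 1 with BDC/NOD replicate 1 left out. At the TCR loci themselves, Trdv2-2, a variable segment of the delta chain, read 6.32 and 5.93 in BDC/NOD and 8.40 and 8.66 in NOD, a fall of -2.40 ± 0.16, and Trbv1, of the beta chain, fell by 1.21 ± 0.16 log2. BDC/NOD replicate 2 was below background for Trdv2-2. Trav13-5, of the alpha chain, was not called (-0.37 ± 0.15), except without NOD DN2-3 replicate 2 (-0.53). Trav7n-5, also of the alpha chain, was too low to be tested. It read 6.35 and 6.23 in BDC/NOD and 3.98 and 4.79 in NOD. Both NOD values lay at background, so it was higher by at least 0.31 log2. Trav12-2, Trav19 and Trav7d-4 were not tested either, and their groups overlapped. Variable segments are similar in sequence, so these signals may include related segments.

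The Notch pathway drives T lineage commitment and weakens after the beta checkpoint. Of all genes 21.5% were called higher and 14.1% lower. Of 22 Notch pathway genes tested, 1 was called higher and 8 lower, with a median of -0.15. These were 1 and 11 with a median of -0.36 without NOD DN2-3 replicate 1, and without NOD DN2-3 replicate 2 they were 3 and 8. Notch3, a receptor, read 8.72 and 8.91 in BDC/NOD and 9.28 and 10.18 in NOD, a fall of -0.92 ± 0.21, and of -1.37 without NOD DN2-3 replicate 1 and -0.47 without replicate 2. The Notch3 call was lost without BDC/NOD replicate 1 (-0.82). Maml2, a coactivator of Notch, had 8.13 and 8.28 in BDC/NOD and 8.89 and 9.56 in NOD (-1.02 ± 0.16). Mfng, a glycosyltransferase that modifies Notch, was the 1 member called higher (0.66 ± 0.16), at 0.30 without NOD DN2-3 replicate 1 and 1.01 without replicate 2. The target genes Ptcra and Il2ra are in the list as well.

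Genes of early progenitors are normally shut down as DN2 cells commit. They gave 0 calls higher and 8 lower of 16 tested, beside 21.5% and 14.1% of all genes. The list median was -0.32, and -0.52 without NOD DN2-3 replicate 1. Leaving out each array gave 5 to 8 calls lower, with 5 without either BDC/NOD array, and 1 call higher without NOD DN2-3 replicate 2. Erg, an ETS-family factor of stem and progenitor cells, read 7.23 and 7.37 in BDC/NOD and 8.67 and 8.73 in NOD, a fall of -1.40 ± 0.10 (adjusted p = 4.98e-07). Mef2c, a MADS-box factor, fell by 1.19 ± 0.16 log2 and Bcl11a, a zinc finger factor, by 0.87 ± 0.12. Id2, an inhibitor of E proteins, read 9.26 and 9.19 in BDC/NOD and 10.13 and 10.63 in NOD (-1.15 ± 0.14), while Id3, the inhibitor induced by pre-TCR and TCR signals, read 7.57 and 7.51 in BDC/NOD and 6.54 and 6.95 in NOD (0.79 ± 0.13). The 2 Id genes thus differed in opposite directions.

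Of 18 commitment factors and E or Id proteins tested, 3 were called higher and 5 lower, where 21.5% and 14.1% of all genes were. Their median of 0.04 was -0.07 after quantile normalization and -0.17 without NOD DN2-3 replicate 1. Without either BDC/NOD array only 1 lower call was left, and there were 5 higher and 3 lower without NOD DN2-3 replicate 2. Gata3, a factor of T lineage development, rose by 0.63 ± 0.12, and Lef1, a high-mobility-group factor, fell by 0.33 ± 0.09 log2, a call lost without BDC/NOD replicate 1 (-0.35) or 2 (-0.31). Bcl11b, the commitment factor, had 10.43 on both BDC/NOD arrays and 10.14 and 10.77 on the NOD arrays, and was not called (-0.03 ± 0.16). Its difference was -0.35 and called without NOD DN2-3 replicate 1, and 0.29 without NOD DN2-3 replicate 2. Ikzf1, which encodes Ikaros, was called at 0.66 ± 0.22 with all arrays but not without NOD DN2-3 replicate 1 (0.19, adjusted p = 0.32), BDC/NOD replicate 1 (0.58) or BDC/NOD replicate 2 (0.75). Among genes that mark the transition to double-positive cells, 2 of 20 were called higher and 8 lower, beside 21.5% and 14.1% of all genes. The median of that list was -0.29. Cd8b1, the CD8 beta chain, was higher at 7.97 and 8.08 in BDC/NOD against 7.21 and 6.29 in NOD (1.28 ± 0.22, and 0.82 without NOD DN2-3 replicate 2). Cd8a was not called (0.43 ± 0.18, adjusted p = 0.071), although it passed without NOD DN2-3 replicate 1 at 0.72. Cd4 was not called (-0.04 ± 0.14), and both coreceptors had been used to deplete cells. Aqp11, a water channel, fell by 1.00 ± 0.13 log2. That list had 7 to 10 lower calls when each array was left out, and 3 higher without NOD DN2-3 replicate 1.

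Cytokine receptor and signalling genes gave 3 calls higher and 5 lower of 24, where 21.5% of all genes were higher and 14.1% lower. Their median of 0.04 became -0.06 after quantile normalization and -0.14 without NOD DN2-3 replicate 1. Il7r, the interleukin-7 receptor that sustains DN cells, read 10.42 and 10.41 in BDC/NOD and 11.19 and 10.99 in NOD, a fall of -0.67 ± 0.11. Il2rb, the beta chain of the interleukin-2 and interleukin-15 receptors, read 7.19 and 7.12 in BDC/NOD and 5.82 and 6.03 in NOD, a rise of 1.24 ± 0.14 with 1 NOD array at background. Leaving out NOD DN2-3 replicate 2 gave a list median of 0.20, where the median of all genes was 0.13. Leaving out either BDC/NOD array gave fewer lower calls. Trafficking receptors had 7 calls higher and 4 lower of 23, beside the same shares over all genes. Their median of 0.11 turned to -0.09 without NOD DN2-3 replicate 1. Ccr4, a chemokine receptor, read 9.19 and 8.96 in BDC/NOD and 7.28 and 7.67 in NOD (1.598 ± 0.13). Ccr8 rose by 1.46 ± 0.17, with NOD replicate 1 at background, and Ccr7, which guides thymocytes to the medulla, by 1.36 ± 0.17. S1pr1, the sphingosine receptor used for thymic exit, rose by 1.13 ± 0.12. Itga6, an integrin chain, fell by 0.52 ± 0.11 log2 and Cxcr4, a chemokine receptor of early thymocytes, by 0.32 ± 0.09. The Cxcr4 call was lost without BDC/NOD replicate 1 (-0.33) or 2 (-0.32). Lower calls numbered 6 without NOD DN2-3 replicate 1, 1 without BDC/NOD replicate 1 and 2 without BDC/NOD replicate 2.

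Costimulatory, inhibitory and SLAM-family receptors had 10 calls higher and 7 lower of 24, with a median of 0.24, beside 21.5% and 14.1% of all genes. Besides Cd2, Pdcd1 and Cd6, Sh2d1a, the SLAM adaptor SAP, rose by 1.06 ± 0.14. Cd200, an inhibitory ligand, read 6.75 and 6.63 in BDC/NOD and 7.66 and 7.90 in NOD, a fall of -1.09 ± 0.17. Only 4 lower calls were left when NOD DN2-3 replicate 1 or BDC/NOD replicate 2 was dropped. Of 10 surface enzymes and Ly6 antigens, 1 was called higher and 4 lower, with a median of -0.19, beside the same shares of all genes. Beside Bst1 and Ly6d, Cd24a, a GPI-anchored antigen of immature cells, was lower (-0.35 ± 0.10), a call lost without NOD DN2-3 replicate 1 (adjusted p = 0.067) or BDC/NOD replicate 2 (-0.30). Cd81, a tetraspanin, averaged 10.97 in BDC/NOD and 9.52 in NOD (1.45 ± 0.23). Leaving out BDC/NOD replicate 2 left 2 lower calls. Among 16 survival and death genes 3 were called in each direction, where 21.5% of all genes were higher and 14.1% lower. Their median was 0.17, and 0.05 without NOD DN2-3 replicate 1. Bid, a death agonist, rose by 0.93 ± 0.09, Bmf, another, fell by 0.71 ± 0.13 log2, and Birc2, an inhibitor of apoptosis, fell by 0.67 ± 0.11 log2. Bcl2 was called at 0.40 ± 0.11, a call lost without NOD DN2-3 replicate 1 (0.22, adjusted p = 0.11), BDC/NOD replicate 1 (0.43) or BDC/NOD replicate 2 (0.37). The median of the survival and death genes was 0.25 without NOD DN2-3 replicate 2, where that of all genes was 0.13. Fewer of them were called higher without BDC/NOD replicate 2.

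Proliferation genes were higher in BDC/NOD cells as a group. Of 30 genes of DNA replication and nucleotide synthesis, 27 were called higher and 0 lower, with a median of 0.70 log2. Of 39 genes of mitosis and the spindle, 36 were called higher and 0 lower, with a median of 0.66. The counts were 25 and 36 and the medians 0.44 and 0.58 without NOD DN2-3 replicate 1. Leaving out each of the 4 arrays in turn gave 23 to 28 replication genes and 33 to 36 mitosis genes, and none was lower. Without the 4 male arrays, which leaves 1 BDC/NOD array, the medians were 0.72 and 0.63, where the median of all genes was 0.07. Within the NOD group, replicate 1 was lower than replicate 2 by a median of 0.39 log2 over the replication genes and 0.20 over the mitosis genes, against 0.14 over all genes.

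Single members showed the same spread. Rrm2, the small subunit of ribonucleotide reductase, read 11.31 and 11.28 in BDC/NOD and 9.61 and 10.39 in NOD, a rise of 1.30 ± 0.20 that was 0.90 without NOD DN2-3 replicate 1. Kif2c, a kinesin of the mitotic spindle, had 9.53 and 9.39 in BDC/NOD and 7.82 and 8.41 in NOD (1.34 ± 0.15). Birc5, which encodes survivin of the chromosomal passenger complex, had 8.81 and 8.75 in BDC/NOD and 7.64 and 7.70 in NOD (1.10 ± 0.12). NOD replicates were close for Birc5 and far apart for Rrm2, and all BDC/NOD values were above all NOD values in the 3 genes. Mcm2, a subunit of the replicative helicase, rose by 1.07 ± 0.23 with all arrays and by 0.59 without NOD DN2-3 replicate 1. Racgap1, of the central spindle, rose by 1.40 ± 0.27 and 0.79 in the same fits, and Aurkb, the passenger complex kinase, by 1.14 ± 0.20 and 0.69.

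G1 regulators had 8 calls higher and 1 lower of 17, with a median of 0.25, beside 21.5% and 14.1% of all genes. Higher were Ccne1, cyclin E1, with 9.75 and 9.77 in BDC/NOD and 8.72 and 8.83 in NOD (0.99 ± 0.09), E2f1, the S phase transcription factor (1.118 ± 0.18), and Cdk2, the kinase partner of cyclin E (0.76 ± 0.12). Ccnd2, cyclin D2, fell by 0.80 ± 0.17 log2, and differed by -0.49 without NOD DN2-3 replicate 2. Ccnd3, cyclin D3, was called at 0.94 ± 0.33 from values of 11.11 and 10.80 in BDC/NOD and 9.28 and 10.75 in NOD. Its difference without NOD DN2-3 replicate 1 was 0.20 (adjusted p = 0.48), and without BDC/NOD replicate 1 or 2 it was 0.78 or 1.10, also not called. Leaving out NOD DN2-3 replicate 1 gave 6 higher calls and 2 lower, and leaving out BDC/NOD replicate 1 or 2 gave 5 or 4 higher.

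The promoters of replication genes are known targets of E2F factors. RefSeq promoter windows, from 250 bases before to 50 bases after a start site (build GRCm38.p6), were searched on both strands for TTTNNCGC, a core of E2F sites. It was found in 12 of 26 replication genes with a window and in 5.93% of all 27025 genes, or 5.17% of 32851 windows. Of the genes called higher 11 of 23 held it, and of the other 3 genes 1 did. A match is a description of the letters and not of binding. The windows of the 2 called genes with the largest rise among those with a match follow, 5′ to 3′ on the strand of the gene, with the matches in capitals. Rfc3, a clamp loader subunit that read 10.01 and 9.89 in BDC/NOD and 8.71 and 9.25 in NOD (0.97 ± 0.15), has its window on the minus strand at chr5:151651159-151651458. Mcm5, a helicase subunit that read 11.44 and 11.36 in BDC/NOD and 9.94 and 10.92 in NOD, has its window on the plus strand at chr8:75109259-75109558. Mcm5 rose by 0.97 ± 0.22, by 0.48 without NOD DN2-3 replicate 1 and by 1.45 without NOD DN2-3 replicate 2.
Rfc3: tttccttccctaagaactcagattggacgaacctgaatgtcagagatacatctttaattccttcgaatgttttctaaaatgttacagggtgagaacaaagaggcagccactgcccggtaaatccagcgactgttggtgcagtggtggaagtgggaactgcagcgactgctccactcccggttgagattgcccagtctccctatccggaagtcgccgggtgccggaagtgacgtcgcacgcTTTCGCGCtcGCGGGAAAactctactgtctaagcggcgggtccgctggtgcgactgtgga
Mcm5: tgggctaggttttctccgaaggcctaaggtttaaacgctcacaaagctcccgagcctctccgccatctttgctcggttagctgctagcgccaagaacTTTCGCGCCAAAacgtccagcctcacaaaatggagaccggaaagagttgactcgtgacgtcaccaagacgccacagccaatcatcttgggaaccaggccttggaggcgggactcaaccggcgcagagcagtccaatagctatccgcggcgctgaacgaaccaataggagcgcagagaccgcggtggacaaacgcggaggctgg

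Genes of ribosome biogenesis and glycolysis, which serve growing cells, were higher too, and their counts moved with single arrays. Of 31 Myc and ribosome biogenesis genes, 21 were called higher and 1 lower, with a median of 0.44, and 14 and 1 with a median of 0.27 without NOD DN2-3 replicate 1. Leaving out BDC/NOD replicate 1 or 2 gave 15 or 14 higher. The 1 lower member was Myc itself, with 10.79 and 10.76 in BDC/NOD and 11.51 and 11.39 in NOD (-0.67 ± 0.22), a call lost without NOD DN2-3 replicate 1 (adjusted p = 0.087), BDC/NOD replicate 1 (-0.68) or BDC/NOD replicate 2 (-0.66). Cad, an enzyme of pyrimidine synthesis, read 10.71 and 10.58 in BDC/NOD and 8.75 and 9.92 in NOD, a rise of 1.31 ± 0.26 that was 0.72 without that array. Rrp9, a processome subunit, rose by 1.02 ± 0.14. Of 20 genes of glycolysis and the pentose phosphate path, 17 were called higher and 0 lower, with a median of 0.76. Leaving out NOD DN2-3 replicate 1 gave 14 higher and 1 lower, with a median of 0.46, and leaving out BDC/NOD replicate 1 gave 11 higher. Ldha, lactate dehydrogenase, read 12.68 and 12.59 in BDC/NOD and 10.97 and 12.17 in NOD. Its rise of 1.06 ± 0.27 was 1.67 without NOD DN2-3 replicate 2 and 0.46 without NOD DN2-3 replicate 1, still called (adjusted p = 0.035), and it lost its call when BDC/NOD replicate 1 was left out (1.02). Hk2, a hexokinase, had 8.39 and 8.33 in BDC/NOD and 7.05 and 7.51 in NOD (1.08 ± 0.20, and 0.85). Over the glycolysis genes NOD replicate 1 was lower than NOD replicate 2 by a median of 0.40 log2. The part of that array in these results was not tested beyond leaving it out.

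**Figure D3:**
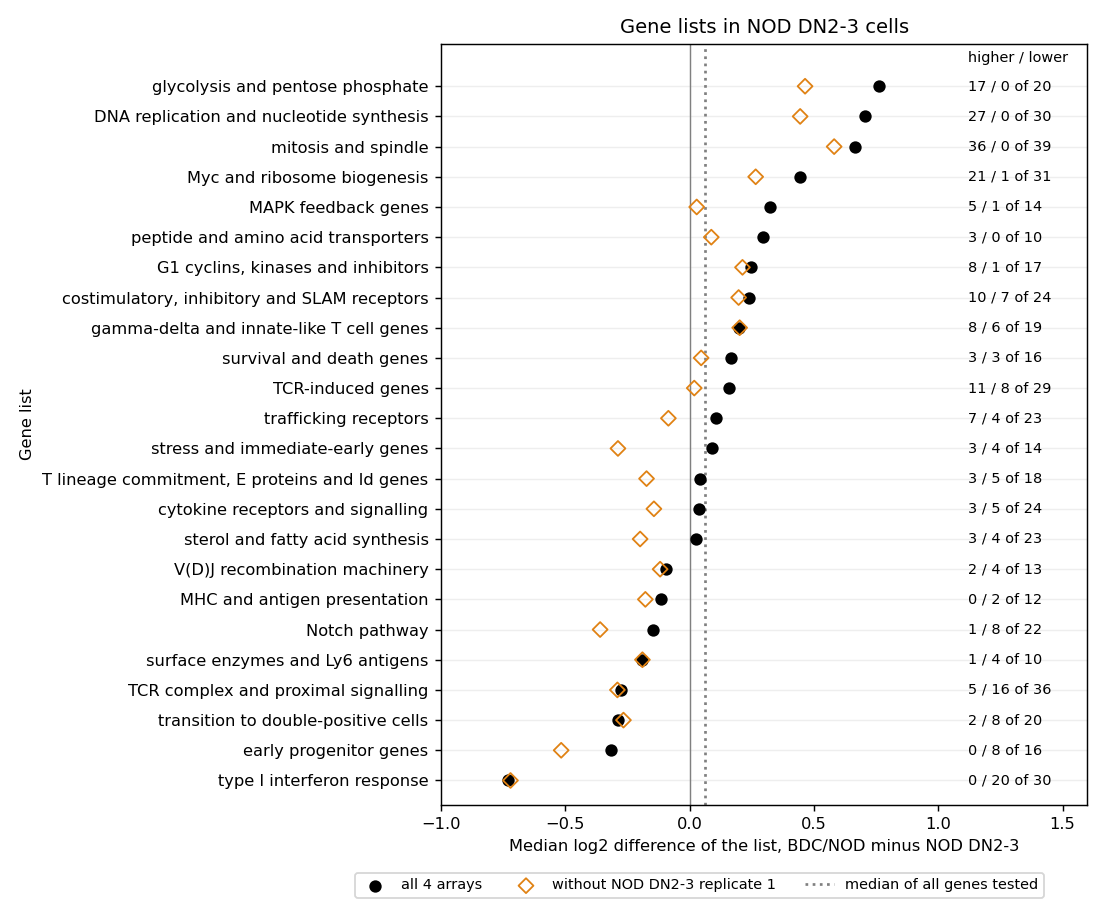
Median log2 difference, BDC/NOD minus NOD DN2-3 (x axis), of the gene lists with at least 10 genes tested, with all arrays (black points) and without NOD DN2-3 replicate 1 (orange diamonds); the dotted line is the median of all genes tested, 0.06. Numbers at the right count members called higher and lower with all arrays. Glycolysis, replication and mitosis genes have the highest medians and interferon response genes the lowest, and the interferon median changes least between the fits among these 4.

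Genes of the type I interferon response were lower in BDC/NOD cells as a group. Of 30 tested, 20 were called lower and 0 higher, with a median of -0.73 log2. Without NOD DN2-3 replicate 1 there were 19 lower and a median of -0.72, and leaving out each of the 4 arrays gave 18 to 20 lower. There were also 2 higher without NOD DN2-3 replicate 2. Without the 4 male arrays, which leaves 1 BDC/NOD array, the median was -0.77, where that of all genes was 0.07. Samd9l, an antiviral protein, read 6.58 and 6.94 in BDC/NOD and 8.34 and 8.06 in NOD, a fall of -1.44 ± 0.18 (adjusted p = 0.000104). Xaf1, an interferon-induced regulator of apoptosis, had 6.28 and 6.47 in BDC/NOD and 7.89 and 7.41 in NOD (-1.27 ± 0.16). The groups did not overlap in either gene, although the BDC/NOD values were not far above background.

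The promoter windows of interferon response genes were searched on both strands for the core of the interferon-stimulated response element, GAAA followed by any 2 bases and GAAA again. It was present in 13 of 24 genes with a window, against 3.99% of all genes and 3.44% of all windows. It was found in 7 of 14 genes called lower and in 6 of 10 others, so genes with and without a call did not separate by it. The 4 called genes with a match and the largest falls are printed below, with the matches in capitals. Ifit1, an antiviral RNA-binding protein (chr19:34640639-34640938, plus strand), read 5.97 and 6.02 in BDC/NOD and 7.84 and 6.95 in NOD. Its fall of 1.40 ± 0.36 log2 was not called without NOD DN2-3 replicate 1 (-0.95, adjusted p = 0.064) or BDC/NOD replicate 1 (-1.38), and its BDC/NOD values lay about at background. Ifih1, the RNA sensor MDA5 (chr2:62646206-62646505, minus strand), had 6.94 and 6.63 in BDC/NOD and 8.11 and 8.01 in NOD, a fall of 1.28 ± 0.13 log2. Trim30a, a tripartite motif protein (chr7:104465144-104465443, minus strand), had 9.33 and 9.15 in BDC/NOD and 10.58 and 10.26 in NOD (-1.18 ± 0.15). Eif2ak2, the RNA-dependent kinase PKR (chr17:78882523-78882822, minus strand), had 7.56 and 7.61 in BDC/NOD and 8.48 and 8.27 in NOD (-0.79 ± 0.10). The last 3 stayed called without NOD DN2-3 replicate 1.
Ifit1: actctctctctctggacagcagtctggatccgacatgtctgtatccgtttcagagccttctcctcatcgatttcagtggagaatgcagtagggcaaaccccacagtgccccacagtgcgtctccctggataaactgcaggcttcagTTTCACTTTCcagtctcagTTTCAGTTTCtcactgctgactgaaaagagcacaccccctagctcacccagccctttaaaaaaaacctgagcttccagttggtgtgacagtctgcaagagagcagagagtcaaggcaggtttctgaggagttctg
Ifih1: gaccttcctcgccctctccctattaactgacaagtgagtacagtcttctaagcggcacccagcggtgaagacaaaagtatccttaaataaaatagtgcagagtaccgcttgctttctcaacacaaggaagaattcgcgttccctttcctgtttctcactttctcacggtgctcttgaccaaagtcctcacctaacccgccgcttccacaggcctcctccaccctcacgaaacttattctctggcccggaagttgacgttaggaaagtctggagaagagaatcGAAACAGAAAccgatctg
Trim30a: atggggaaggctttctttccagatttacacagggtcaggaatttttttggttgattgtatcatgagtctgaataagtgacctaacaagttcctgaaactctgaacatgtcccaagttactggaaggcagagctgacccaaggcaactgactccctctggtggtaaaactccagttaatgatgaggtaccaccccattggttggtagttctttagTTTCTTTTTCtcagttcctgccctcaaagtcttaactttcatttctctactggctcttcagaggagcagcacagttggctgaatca
Eif2ak2: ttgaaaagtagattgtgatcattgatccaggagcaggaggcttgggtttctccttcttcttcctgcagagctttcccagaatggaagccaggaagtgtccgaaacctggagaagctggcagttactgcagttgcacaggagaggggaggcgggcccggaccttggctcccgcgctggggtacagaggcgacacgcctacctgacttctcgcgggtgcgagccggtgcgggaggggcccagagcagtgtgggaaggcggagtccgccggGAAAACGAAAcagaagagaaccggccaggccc

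**Figure D4:**
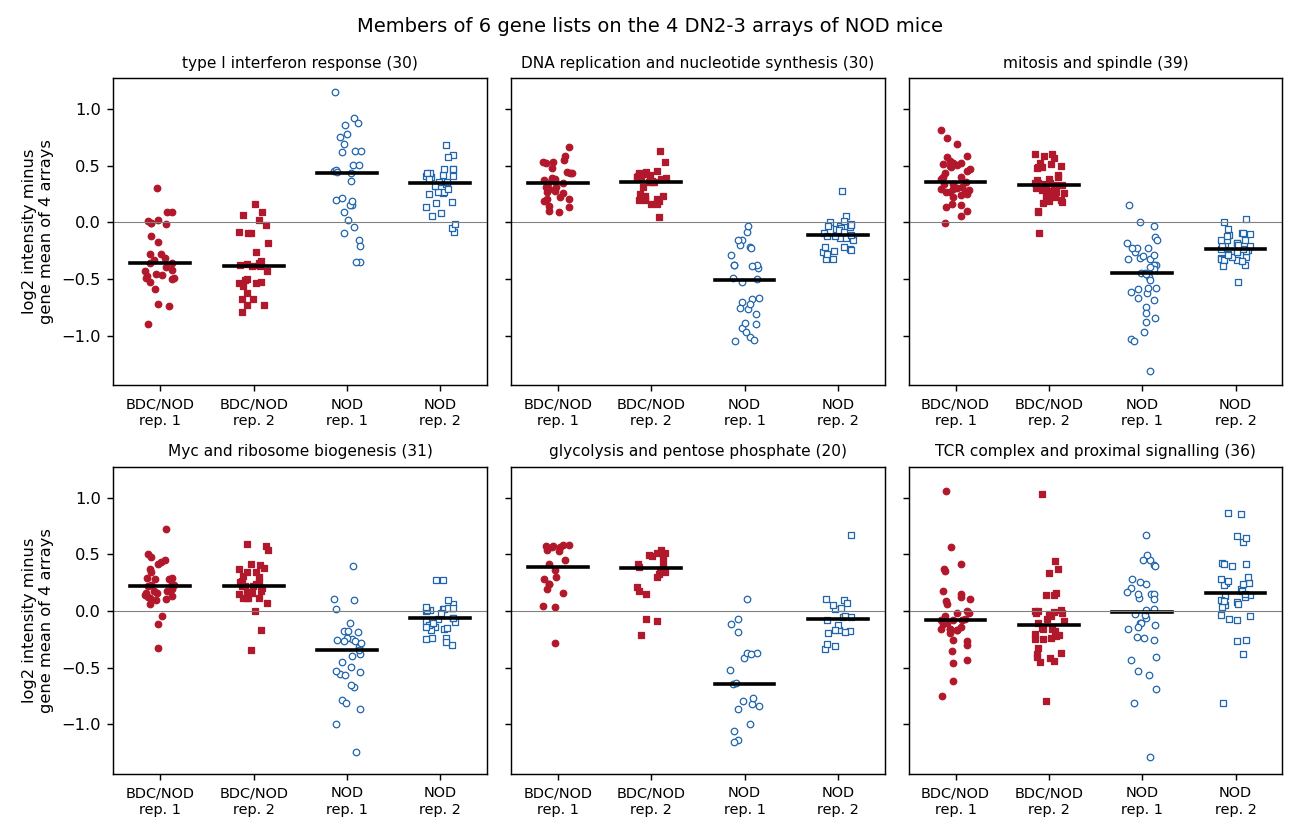
Each tested member of 6 gene lists on the 4 DN2-3 arrays of NOD mice, as log2 intensity minus the mean of that gene over the 4 arrays (y axis), with the number of genes in each title. Filled red symbols are BDC/NOD, open blue symbols are NOD, and black bars are medians. Interferon response genes lie lower on both BDC/NOD arrays than on both NOD arrays, whereas in the proliferation, ribosome and glycolysis lists NOD replicate 1 lies below NOD replicate 2.

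MHC and antigen presentation genes gave 0 calls higher and 2 lower of 12, beside 21.5% and 14.1% of all genes. The list median was -0.11. The 2 lower genes were Tap2, a peptide transporter subunit (-0.66 ± 0.10), and H2-DMa, a peptide exchange factor of class II (-0.47 ± 0.09). There were 4 lower calls without NOD DN2-3 replicate 1, and 3 in each direction without NOD DN2-3 replicate 2. Sterol and fatty acid genes had 3 calls higher and 4 lower of 23, beside 21.5% higher and 14.1% lower over all genes. Their median of 0.02 became -0.06 after quantile normalization and -0.20 without NOD DN2-3 replicate 1. Scd1, a fatty acid desaturase, read 6.29 and 6.56 in BDC/NOD and 7.49 and 8.44 in NOD, a fall of -1.55 ± 0.26. The 3 higher calls were Fasn, Srebf1 and Acly, of fatty acid synthesis and its control, and 0 were left without NOD DN2-3 replicate 1, where 6 were lower. The 3 higher calls were also lost without BDC/NOD replicate 1 or 2, and fewer genes were called lower. Without NOD DN2-3 replicate 2 the list median was 0.17, where that of all genes was 0.13. Of 10 peptide and amino acid transporters 3 were called higher, beside 21.5% of all genes. The list median was 0.29, and 0.09 without NOD DN2-3 replicate 1. Slc7a1, a cationic amino acid transporter, rose by 0.72 ± 0.15 beside Slc15a1, and by 0.41 without that array. Slc1a5, a glutamine transporter, was called at 0.70 ± 0.22 but not without NOD DN2-3 replicate 1 (0.18, adjusted p = 0.21), BDC/NOD replicate 1 (0.62) or BDC/NOD replicate 2 (0.77). There were 7 higher calls without NOD DN2-3 replicate 2. Of 14 stress and immediate-early genes 3 were called higher and 4 lower, again beside 21.5% and 14.1% of all genes, with a median of 0.09. Jun, an AP-1 subunit, read 9.16 and 9.10 in BDC/NOD and 10.24 and 11.40 in NOD (-1.69 ± 0.25, and -1.11 without NOD DN2-3 replicate 2), and Junb fell by 0.65 ± 0.20 log2. The Junb call was lost without NOD DN2-3 replicate 2 (-0.33) or BDC/NOD replicate 1 (-0.61) or 2 (-0.69). Without NOD DN2-3 replicate 1 the median of the stress list turned to -0.29, where that of all genes was 0.01. Without NOD DN2-3 replicate 2 it was 0.18, where that of all genes was 0.13. Fewer members were called in each direction without either BDC/NOD array.

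Markers of other cells that the sort could hold were called in both directions, where 35.6% of all genes tested were called. Among 10 mature T cell markers matched, 4 of 9 tested were called higher, Ccr7, Cd8b1, S1pr1 and Klf2, the last a factor of naive T cells (0.96 ± 0.14), with a median of 0.43. The summed level of the list was 11.01 and 11.07 log2 in BDC/NOD and 10.44 and 10.21 in NOD. Of these 4 only Klf2 is not among the genes described above. Of 10 B cell markers, 4 were at background in both groups, and 2 were tested and lower: Cd79b (-0.88 ± 0.10) and Igll1, the lambda5 gene (-1.10 ± 0.12). The summed B cell level was 9.91 and 9.93 in BDC/NOD and 10.48 and 10.55 in NOD. Of 16 myeloid and dendritic markers, 8 were at background in both groups and 2 were tested. Lyz2, lysozyme, fell by 1.69 ± 0.22 log2, with 6.13 and 5.96 in BDC/NOD and 7.40 and 8.08 in NOD. Its BDC/NOD replicate 2 was below background, which limits the size of the fall. The other marker tested was not called, and both its BDC/NOD arrays were above both NOD arrays. The summed myeloid level was 11.22 and 11.23 in BDC/NOD and 11.34 and 11.32 in NOD. The part of B and myeloid cells in the lower interferon and progenitor genes was not tested. Of 10 stromal markers 4 were tested, and only Epcam was called. It fell by 0.76 ± 0.12 log2, and the list median was -0.07. The stromal sums were 10.85 and 10.76 in BDC/NOD and 10.85 and 10.99 in NOD. NK, mast cell and erythroid markers had 0 calls among 4 tested genes, and 0 without NOD DN2-3 replicate 1. Without NOD DN2-3 replicate 2, both NK markers and the mast cell marker tested were called lower. The summed NK level was 8.65 and 8.79 in BDC/NOD and 9.02 and 8.69 in NOD, and the summed mast cell level 11.39 and 11.46 in BDC/NOD and 11.84 and 11.24 in NOD.

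Whether the transgene acted alike in both strains was addressed with the strain by transgene interaction, the NOD difference minus the B6g7 difference in DN2-3 cells. The 2 differences share no arrays. In B6g7 DN2-3 cells, 1800 genes were higher with the transgene (16.8%) and 1338 lower (12.5%). Of the genes higher in BDC/NOD, 1183 were also higher in BDC/B6g7, 51.4% of the NOD list and 65.7% of the B6g7 list. Of those lower, 896 were shared, 59.5% and 67.0% of the lists, and 2 genes higher and 15 lower in BDC/NOD were called the opposite way in B6g7. Over the 10689 genes the differences correlated with r = 0.773, as a description over genes that are not independent. The interaction was called for 123 genes (1.15%), 35 with a more positive difference in NOD and 88 with a more negative one. Without NOD DN2-3 replicate 1 it was called for 265 genes, including 120 of the 123, and without NOD DN2-3 replicate 2 for 2744. Leaving out any of the other 6 DN2-3 arrays gave 56 to 69.

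Rag1 and Cd5 differed between the strains. Rag1 averaged 9.57 in BDC/NOD and 11.09 in NOD, and 8.20 in BDC/B6g7 and 11.42 in B6g7, so that its fall was less deep in NOD by 1.69 ± 0.34 (adjusted p = 0.0327). Cd5 averaged 9.15 in BDC/NOD and 8.33 in NOD, and 10.03 in BDC/B6g7 and 8.36 in B6g7, and its rise was smaller in NOD (-0.85 ± 0.14, adjusted p = 0.0104). The Rag1 interaction ranged from 1.51 to 1.87 and was not called when any 1 of the 6 DN2-3 arrays other than the NOD arrays was left out. Ccr9, a thymic chemokine receptor, was lower with the transgene by 1.95 log2 in B6g7 and had an uncalled difference of -0.42 in NOD (interaction 1.53 ± 0.23). Without NOD DN2-3 replicate 1 its NOD difference was called lower (-0.52, adjusted p = 0.046). Camkv, a kinase-like protein (1.72 ± 0.23), and Dhrs3, a retinal reductase (1.48 ± 0.28), likewise fell more in B6g7, with differences of -0.78 and -0.55 in NOD. The NOD difference of Camkv was -0.49 without NOD DN2-3 replicate 2. That of Dhrs3 was -0.87 without NOD DN2-3 replicate 1, and was not called without BDC/NOD replicate 1 (-0.56) or 2 (-0.54). The Dhrs3 interaction likewise lost its call without any 1 of those 6 arrays (1.35 to 1.604). Tdrd5 was below background in both BDC groups and averaged 6.16 in NOD and 7.32 in B6g7, and its interaction of 1.34 ± 0.22 is therefore open to background. Olfr1507 was below background in both NOD groups and in BDC/B6g7, with a mean of 7.38 in B6g7, so that it was lower with the transgene in B6g7 by at least 1.40 log2 and its interaction has no measured size. The Tdrd5 interaction was not called without BDC/NOD replicate 2 (1.24), B6g7 replicate 2 (1.31) or BDC/B6g7 replicate 1 (1.31).

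The interaction was negative for other genes, some with a fall in NOD and some with a rise in B6g7. B4galnt2, a glycosyltransferase, averaged 7.34 in BDC/NOD and 8.35 in NOD, but 8.83 in BDC/B6g7 and 6.61 in B6g7, so that the transgene difference was called in opposite directions (interaction -3.23 ± 0.32, adjusted p = 0.00079). Rxfp1 fell more in NOD (-2.32 ± 0.31). Ifitm3, an interferon-induced membrane protein, averaged 8.13 in BDC/NOD and 10.14 in NOD, and 8.36 in BDC/B6g7 and 8.45 in B6g7 (-1.91 ± 0.40, adjusted p = 0.0377). The NOD level without the transgene was the highest of the 4. The Ifitm3 interaction was not called without BDC/NOD replicate 1 (-1.75) or 2 (-2.06), B6g7 replicate 1 (-1.66) or 2 (-2.15), or BDC/B6g7 replicate 1 (-1.63). Serpinb1a, a protease inhibitor, fell by 1.38 ± 0.17 log2 in NOD and had an uncalled difference of 0.44 in B6g7 (-1.82 ± 0.24). Fam20a, a secretory pathway pseudokinase (-2.36 ± 0.28), was higher with the transgene in B6g7 and not called in NOD. Akr1c12, an aldo-keto reductase, was below background in both NOD groups and in B6g7, and higher in BDC/B6g7 by at least 1.36 log2, so that its interaction has no measured size either. The interferon list had 1 interaction call of 30, and the replication, mitosis, ribosome and glycolysis lists had 0 each. The medians of the last 4 lists were 0.54, 0.55, 0.32 and 0.52 in B6g7, and 0 interaction calls do not show that the strains responded alike.

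**Figure D5:**
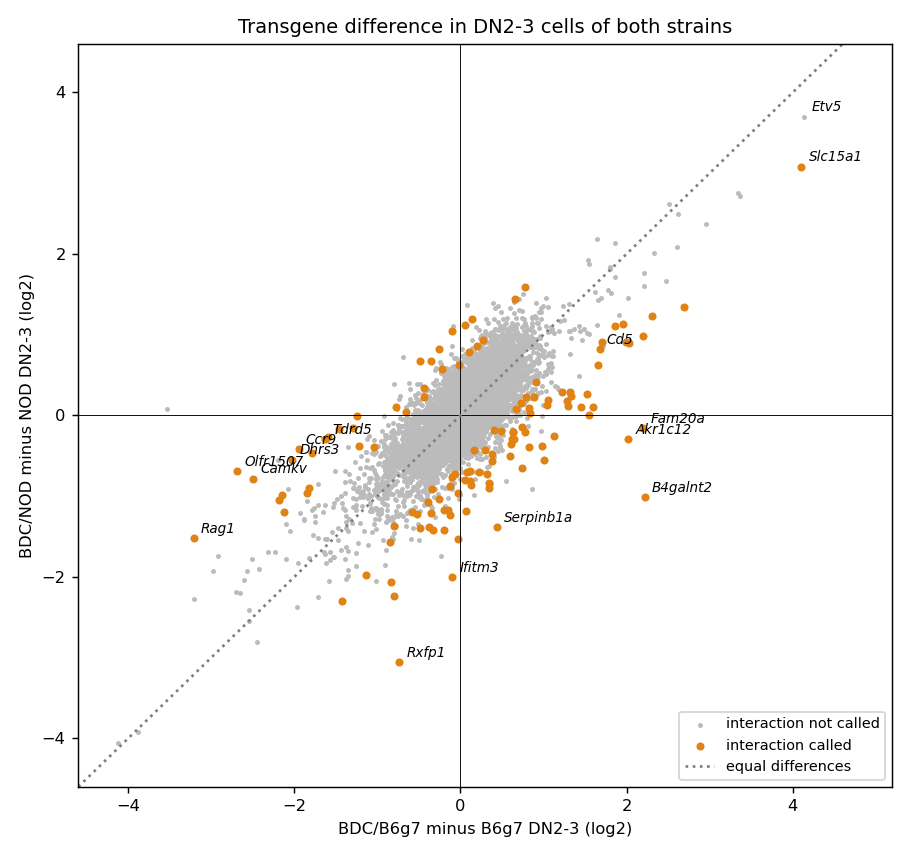
Transgene difference of each tested gene in NOD DN2-3 cells (y axis, BDC/NOD minus NOD, log2) against that in B6g7 DN2-3 cells (x axis, BDC/B6g7 minus B6g7, log2). Orange points are the 123 genes with a called interaction, grey points the others, and the dotted line marks equal differences. Most genes follow the line (r = 0.773), Rag1 and Ccr9 lie above it, and Rxfp1, Ifitm3 and B4galnt2 lie below it.

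The stage by transgene interaction compared the DN2-3 difference with the DN4 difference within NOD, again without shared arrays. It was called for 3569 genes (33.4%), 2193 with a more positive difference in DN2-3 (20.5%) and 1376 with a more negative one (12.9%). After quantile normalization the split was 1873 and 1719, and after centring 2516 and 1045. Of the called genes 3128 stayed called without NOD DN2-3 replicate 1. In NOD DN4 cells 1132 genes were higher with the transgene (10.6%) and 1577 lower (14.8%). Of the genes higher in DN2-3, 238 were also higher in DN4 and 415 were lower, and of those lower in DN2-3, 256 were also lower in DN4 and 256 were higher. The correlation of the differences over genes was 0.135, given as a description.

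Proliferation genes were the clearest case. Of the 30 replication genes, 29 had a called positive interaction, with a median of 1.11 log2, since their median difference was 0.70 in DN2-3 and -0.37 in DN4, where 14 were called lower. Of 39 mitosis genes, 37 had one, with a median of 1.11. Ccne1 averaged 9.76 in BDC/NOD and 8.78 in NOD DN2-3 cells, and 9.77 in BDC/NOD and 10.57 in NOD DN4 cells (interaction 1.79 ± 0.12, adjusted p = 1.04e-06). Birc5 had 8.78 and 7.67 in DN2-3 and 8.45 and 9.08 in DN4, BDC/NOD first in each pair (1.73 ± 0.17). For both genes the BDC/NOD level was similar at the stages while the NOD level without the transgene was not. Prdx4, a peroxiredoxin (1.80 ± 0.20), and Ccnb1ip1, a cyclin B interacting protein (1.81 ± 0.22), also had opposite calls at the stages, and the DN2-3 rise of Ccnb1ip1 was not called without BDC/NOD replicate 2 (0.45). Ikzf3, which encodes Aiolos, averaged 9.29 in BDC/NOD and 10.79 in NOD DN4 cells, and was lower there, but not called in DN2-3 (1.95 ± 0.29), except without NOD DN2-3 replicate 2 (0.76). Cd2 rose at both stages, more in DN2-3 (1.91 ± 0.15).

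The negative interactions included genes that were higher with the transgene in DN4 cells and lower or not called in DN2-3 cells. Cpa3, a mast cell carboxypeptidase that early T cell progenitors also express, averaged 11.21 in BDC/NOD and 11.34 in NOD DN2-3 cells, and 12.22 in BDC/NOD and 6.82 in NOD DN4 cells (-5.52 ± 0.28). The other 8 mast cell markers were not tested, since none had a group mean of at least 7.05 log2 in any of the 8 groups. Of these markers, 5 were at background in both DN2-3 groups. The part of mast cells in the Cpa3 levels was not tested. Atp8b4, a lipid flippase (-4.09 ± 0.14), and Cd53, a tetraspanin (-3.44 ± 0.12), were like Cpa3. Their differences were -0.69 and -0.18 in DN2-3 and 3.40 and 3.27 in DN4. Ccr9 had -0.42 in DN2-3 and 3.08 in DN4 (-3.49 ± 0.23). Rgs1 (-4.15 ± 0.43), Cd69 (-3.14, adjusted p = 5.3e-06) and AA467197 (-3.60 ± 0.26) were lower with the transgene in DN2-3 and higher in DN4. Of the interferon response genes 17 of 30 had a called negative interaction, and 8 were called higher and 2 lower in DN4. TCR complex genes had 19 of 36 negative interactions, with 16 called higher in DN4.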

How the data were processed

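The 16 arrays (Affymetrix Mouse Gene 1.0 ST) measured RNA of sorted thymocytes, 2 arrays in each of 8 groups. The deposited values are linear intensity per probe set, which the authors summarised with RMA in Affymetrix Power Tools, per the submitters' processing notes; versions are not given in the sources used here. Of 25108 probe sets, 21157 had 1 gene symbol, 1341 several and 2610 none, and the brightest probe set of each symbol gave 19531 genes. Values were log2-transformed without a pseudocount. The 10689 genes whose highest group mean was at least 7.05 log2 were tested with limma 3.58.1 (R 4.3.3) in 1 fit of all 8 groups, with 8 residual and 5.06 prior degrees of freedom, two-sided, with Benjamini-Hochberg adjustment over all genes tested. A gene was called at an adjusted p under 0.05. SE is the model's.

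Named were the 12 largest called rises and falls without overlap between groups, all key genes, up to 4 called members of each list in each direction and 6 interaction genes each way. The largest changes exclude predicted genes, small RNAs, receptor and immunoglobulin loci and sex-linked genes. Of 631 listed genes 582 were matched and 491 tested, and the others are not analysed here. The members and lists were chosen with earlier results of these data known. On simulated data of 10689 genes for the NOD DN2-3 comparison, 54% of 50 genes changed 1.5-fold were recovered. The shares were 93% of 100 genes changed 2-fold and 96% of 50 changed 4-fold, with 9 false calls. The simulated noise was independent, with the same spread in all groups and few changed genes. These figures thus do not cover an array that deviates as a whole, such as NOD DN2-3 replicate 1. The number of arrays limits the precision. Alternatives covered the filter, probe sets, scaling, background, replicate number, sex, weights, variance model, arrays in the fit and each array left out.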

Additional observations from a re-analysis of the deposited data

Results flagged for a closer look

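Each of these results was picked out because the transgene difference itself differed between 2 strains or 2 stages in the interaction test of limma, with Benjamini-Hochberg adjustment. Between strains, 123 genes passed in DN2-3 cells. The NOD difference minus the B6g7 difference was positive for Olfr1507 (2.00), Camkv (1.72), Rag1 (1.69), Ccr9 (1.53), Dhrs3 (1.48) and Tdrd5 (1.34). It was negative for B4galnt2 (-3.23), Fam20a (-2.36), Rxfp1 (-2.32), Akr1c12 (-2.31), Ifitm3 (-1.91), Serpinb1a (-1.82) and Cd5 (-0.85), all on the log2 scale. Olfr1507 and Akr1c12 were below background in 3 of the 4 groups and Tdrd5 in 2, so their values are not measured sizes.

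Between stages in NOD mice, 3569 genes passed. The DN2-3 difference minus the DN4 difference was positive for Ikzf3 (1.95), Cd2 (1.91), Ccnb1ip1 (1.81), Prdx4 (1.80), Ccne1 (1.79) and Birc5 (1.73). It was negative for Cpa3 (-5.52), Rgs1 (-4.15), Atp8b4 (-4.09), AA467197 (-3.60), Ccr9 (-3.49) and Cd53 (-3.44). Groups of 2 arrays are too small for a test of single outlying arrays.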

How the results depend on the processing

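The counts of genes called were 3808 for the NOD DN2-3 difference, 123 for the strain interaction and 3569 for the stage interaction. With array weights the first 2 were 1228 and 36, and with only the DN2-3 arrays 2350 and 30. With only the 4 arrays compared the first was 297. A 2-fold minimum gave 56, 1 and 85, and leaving out the 4 male arrays 855, 4 and 845. Leaving out 1 array gave 2017 to 5784, 56 to 2744 and 2459 to 5326. Quantile normalization without NOD DN2-3 replicate 1, chosen after seeing the data, gave 238 for the strain interaction. With sex as a term the counts were 3297, 103 and 3406. That and the other settings kept the counts within 1.5 times.

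With the replicate number as a block the counts were 3846, 117 and 3632. Deviations of same-numbered arrays correlated with r = -0.17 between the 2 NOD DN2-3 groups, but with 0.58 between NOD DN2-3 and NOD DN4 and 0.46 between BDC/NOD DN2-3 and BDC/NOD DN4. In the BDC groups the number goes with sex. The labels do not say that numbers pair the samples. The crossed block, added after seeing the data, gave 3735, 105 and 3484.

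Some NOD DN2-3 differences that were not called with all arrays changed sign. Cd4 was 0.056 after quantile normalization and 0.036 after centring, and ran between -0.11 and 0.037 with 1 array left out. Bcl11b was 0.043 after centring and ran from -0.35 to 0.29, and Egr1 ran from -0.46 to 0.14. Fam20a ran from -0.33 to 0.0055 and Cpa3 from -0.46 to 0.20, and they were 0.0038 and 0.17 after quantile normalization without NOD DN2-3 replicate 1. The cause of these shifts was not tested. A group reduced to 1 array is assumed to vary like the others. Signals near 5.98 log2 are limited by background.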

Other observations

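Gene families were examined by name after their values were seen, and are given as descriptions. Their counts stand beside 21.5% of all genes called higher and 14.1% called lower. A few members, such as Gbp3 in the interferon list, are also counted in the lists above. All 6 guanylate-binding protein genes tested, which are induced by interferons, were called lower in BDC/NOD than in NOD DN2-3 cells, with a median of -1.70 log2, and 6 were lower without NOD DN2-3 replicate 1. Gbp8 read 9.12 and 9.04 in BDC/NOD and 11.16 and 11.08 in NOD, a fall of -2.04 ± 0.09, and the groups did not overlap. In B6g7 DN2-3 cells 5 were called lower, and in NOD DN4 cells 0 were called in either direction. Of 5 Ifitm genes 4 were called lower. Ifitm2 fell by 1.38 log2, with both BDC/NOD arrays below both NOD arrays, and it fell more than in B6g7 (interaction -1.001, adjusted p = 0.0108). Related members of both families can share probe sequence.

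Of 8 Gimap genes, GTPases of lymphocyte survival, 5 were called higher and 0 lower, also without NOD DN2-3 replicate 1. Of 7 chaperonin subunit genes 6 were called higher, with a median of 0.55, and 6 without that array. Proteasome subunits had 22 of 38 called higher and 0 lower, and 14 without NOD DN2-3 replicate 1. Mitochondrial ribosomal proteins had 33 of 77 higher, and 15 without that array. Of 62 cytosolic ribosomal protein genes 16 were called higher and 1 lower, with a median of 0.18, and of 0.12 without that array. Of 253 Zfp zinc finger genes 18 were called higher and 74 lower. Their median was -0.15, and -0.19 without NOD DN2-3 replicate 1. Scaling moved such counts: 91 Zfp genes were lower after quantile normalization and 52 after centring. In the same 2 settings 23 and 37 mitochondrial ribosomal protein genes were higher.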
